A study of Mus musculus with 23 samples.

Results

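Tyrobp, Lyz2, Laptm5, Cd53 and Cx3cr1 are genes by which microglia and macrophages are commonly recognised, and their reads were followed here through an astrocyte RNA precipitate and the RNA left behind by it. They were taken by gene symbol from the 2 deposited count tables, and all 5 were listed in both, among 9363 genes in the precipitate table, 4898 in the other and 4781 in both. The tissue came from injured spinal cord of young adult mice that carry mGFAP-Cre and RiboTag, in which Cre driven by a mouse Gfap promoter tags ribosomes with hemagglutinin (HA). All animals had a severe crush at thoracic level 10, and the middle 3 mm of the lesion was taken 14 days later. RNA bound to the tag (the HA fraction) and RNA in the flow-through (FT) were sequenced as separate libraries. The 3 treatments were injury alone (SCI only, 4 HA and 4 FT libraries), a hydrogel depot injected 2 days after injury and labelled CT (3 HA and 4 FT), and a hydrogel depot with growth factors (3 HA and 5 FT). What CT means is not explained, and the growth factors are FGF and EGF in the study's title but BDNF and NT3 in the column names of the tables. The genotype label reads wild type for every library, no group lacked the injury, and no group lacked the tag. Nothing says that the 4-digit numbers in the library titles are separate animals, so all p-values measure the spread between libraries.

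Microglia are the resident macrophages of the nervous system, and after a crush injury they share the lesion with macrophages that enter from the blood. Both take up myelin and cell debris, and astrocytes normally express few of their identity genes. Cx3cr1 is the receptor for fractalkine, a chemokine that neurons present on their surface, and it is high in resting microglia. Tyrobp (also called DAP12) is the adaptor through which receptors such as Trem2 signal. Cd53 is a tetraspanin of the white blood cell membrane, Laptm5 a lysosomal membrane protein of blood-derived cells, and Lyz2 the secreted lysozyme of phagocytes.

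Each gene was counted on 1 transcript in both tables. In mm10 the counted transcripts lie on chromosome 9 at 120048683 to 120068296 (Cx3cr1, minus strand, 2 exons), chromosome 7 at 30413788 to 30417577 (Tyrobp, plus strand, 5 exons), chromosome 3 at 106759921 to 106790149 (Cd53, minus strand, 8 exons), chromosome 4 at 130913125 to 130936141 (Laptm5, plus strand, 8 exons) and chromosome 10 at 117277331 to 117282321 (Lyz2, minus strand, 4 exons). No exon of another GENCODE M21 gene, on either strand, overlapped their exons. Lyz2 has a near-identical copy, Lyz1, which was not in the HA table and had 0 to 10 reads per FT library (22 reads in all, against 17505 of Lyz2), so Lyz2 values are uncertain to the extent that reads of the copy were assigned to it.

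Because the 5 genes were low together in the precipitate, as described further on, the DNA upstream of their start sites is shown with the core of the binding sequence of PU.1, an Ets family factor that myeloid cells depend on. RefSeq promoter windows (build GRCm38.p6) were held for 4 of the 5 members, all but Tyrobp. The motif GAGGAA, which reads TTCCTC on the other strand, was searched on both strands in the 250 bases upstream of each RefSeq start. So was the related Ets core GGAAGT, or ACTTCC on the other strand, which overlaps the first in 4 letters. Over 32851 such windows, 23.3% held the first motif and 19.7% the second. The windows are printed for Cd53 (chr3:106790150-106790399), Lyz2 (chr10:117282322-117282522, ending where the counted transcript starts) and Cx3cr1 (chr9:120068297-120068546), all on the minus strand, 5′ to 3′, with matches in capitals.
Cd53: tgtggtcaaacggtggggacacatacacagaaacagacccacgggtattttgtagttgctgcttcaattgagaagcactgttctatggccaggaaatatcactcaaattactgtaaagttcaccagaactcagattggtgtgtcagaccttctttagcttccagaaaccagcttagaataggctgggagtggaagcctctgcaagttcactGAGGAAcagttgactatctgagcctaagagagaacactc
Lyz2: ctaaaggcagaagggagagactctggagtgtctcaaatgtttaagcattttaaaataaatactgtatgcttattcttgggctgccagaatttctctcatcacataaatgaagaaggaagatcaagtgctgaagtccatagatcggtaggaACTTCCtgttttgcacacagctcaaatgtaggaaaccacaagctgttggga
Cx3cr1: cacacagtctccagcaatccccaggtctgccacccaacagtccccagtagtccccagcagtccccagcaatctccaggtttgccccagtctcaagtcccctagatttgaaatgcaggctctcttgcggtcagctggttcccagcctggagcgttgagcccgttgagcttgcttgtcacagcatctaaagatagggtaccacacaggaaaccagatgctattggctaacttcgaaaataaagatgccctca
Cd53 had 1 match to the first and 0 to the second, Lyz2 had 0 and 1, and Laptm5, whose window runs into the counted transcript and is not printed, had 1 of each. Cx3cr1 had neither, which says only that these letters are not in this window.

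Depth differed greatly between libraries. Totals ran from 7940025 to 24337017 reads in HA and from 19607 to 5432938 in FT, and much of this was the transcript Yam1 (13.8% to 93.1% of a library's reads). Levels are therefore given as CPM over the reads of protein-coding genes other than Lars2, written coding CPM, whereas tests use scaling across all genes. These coding reads numbered 202299 to 5800354 in HA, 26902 to 255228 in FT after injury alone, 4249 to 39214 in FT for hydrogel CT and 2251 to 115767 in FT for growth factors. In 4 FT libraries (1683, 1645, 1687 and 1729) they were under 10000, so that 3 reads, the limit that a count of 0 allows, came to between 302 and 1333 coding CPM. Such limits cover counting error only. Levels within a group are listed by rising title number. The deepest FT library with growth factors was 1732.

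Cd53, the tetraspanin, separated the fractions most cleanly. In HA it stood at 3.84, 23.1, 19.5 and 24.7 coding CPM after injury alone, at 17.9, 13.3 and 0 with hydrogel CT, and at 7.22, 3.54 and 0 with growth factors. In FT the levels were 560, 725, 406 and 149 after injury alone, 0, 1825, 1224 and 231 with hydrogel CT, and 0, 887, 466, 0 and 60.5 with growth factors. Among the 20 libraries of the 10 numbers that have both fractions, every HA library was below every FT library for Cd53, which 0.674% of the 4747 genes tested also showed. The FT zeros were all in libraries with fewer than 10000 coding reads and no HA partner.

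Tyrobp, the adaptor, was measured by few reads in many libraries. In FT it stood at 646, 1163, 1945 and 855 coding CPM after injury alone, 0, 1004, 459 and 635 with hydrogel CT, and 0, 68.2, 310, 0 and 34.6 with growth factors. In HA it was 25.6, 11.5, 219 and 0 after injury alone, 6.32, 6.49 and 17.8 with hydrogel CT, and 23.6, 0 and 3.79 with growth factors. The HA library 9874 was far above the other 3 of its group, and the FT values with growth factors were below those after injury alone. That separation is not established, since 0 reads in FT library 1645 allow up to 1333 coding CPM. Of the 610 FT genes that passed the filter on low counts 4.59% showed it, but Tyrobp was not among them. No share was taken over all listed genes. HA was lower than FT in 10 of 10 numbers for Tyrobp and for Cd53, which held for 2.78% of genes tested, and in 9 of 10 for Laptm5, Lyz2 and Cx3cr1 (at least 9 of 10 for 7.46%).

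Laptm5, the lysosomal membrane protein, stood in FT at 2915, 3530, 2506 and 4646 coding CPM after injury alone. With hydrogel CT the FT levels were 0, 593, 255 and 0, and with growth factors they were 4442, 205, 776, 101 and 25.9. In HA they were 42.3, 235, 412 and 93.9 after injury alone, 74.5, 17.3 and 0.517 with hydrogel CT, and 3.28, 7.07 and 2.84 with growth factors. In FT all libraries with hydrogel CT were below all with injury alone, and so were those with growth factors except library 1645. There 4442 coding CPM was 10 reads of 2251. Of the 610 FT genes that passed the filter on low counts 6.89% had the hydrogel CT separation, but Laptm5 was not among them. No share was taken over all listed genes. In HA the 3 libraries with growth factors were all below the 4 with injury alone, as for 13.5% of 6654 genes. The 1 number with no lower HA level was 1762, with 0 reads in FT and 3 in HA.

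Lyz2, the lysozyme, had more reads than any other member in every library except HA 1685 and HA 1687, where Cx3cr1 had more, and FT 1729, where both had 2. Its FT levels were 24750, 66234, 30906 and 22303 coding CPM after injury alone. They were 471, 19661, 16780 and 2598 with hydrogel CT, and 14216, 7915, 8690, 202 and 553 with growth factors. In HA they were 455, 2105, 3717 and 756 after injury alone, 1032, 433 and 83.3 with hydrogel CT, and 127, 311 and 560 with growth factors. All FT libraries with a hydrogel were below all FT libraries with injury alone, as for 6.89% of 610 genes with hydrogel CT and 4.59% with growth factors. Number 1732 was the 1 of 10 in which Lyz2 was not lower in HA (560 against 553 coding CPM).

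Cx3cr1, the fractalkine receptor, had another order of treatments. In FT it was lowest after injury alone, at 31.3, 64.0, 208 and 0 coding CPM, against 0, 1825, 1938 and 289 with hydrogel CT. With growth factors it reached 2221, 2729, 3724, 202 and 259. In HA it stood at 17.9, 61.6, 0 and 4.94 after injury alone, 95.5, 11.1 and 3.10 with hydrogel CT, and 191, 449 and 51.1 with growth factors. In both fractions the highest library was one with growth factors. In FT the lowest of these 5 (202) was just under the highest after injury alone (208), and in HA 51.1 lay within the range after injury alone. The number in which HA was not lower was 9935, with 1 read in HA and 0 in FT.

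**Figure D1:**
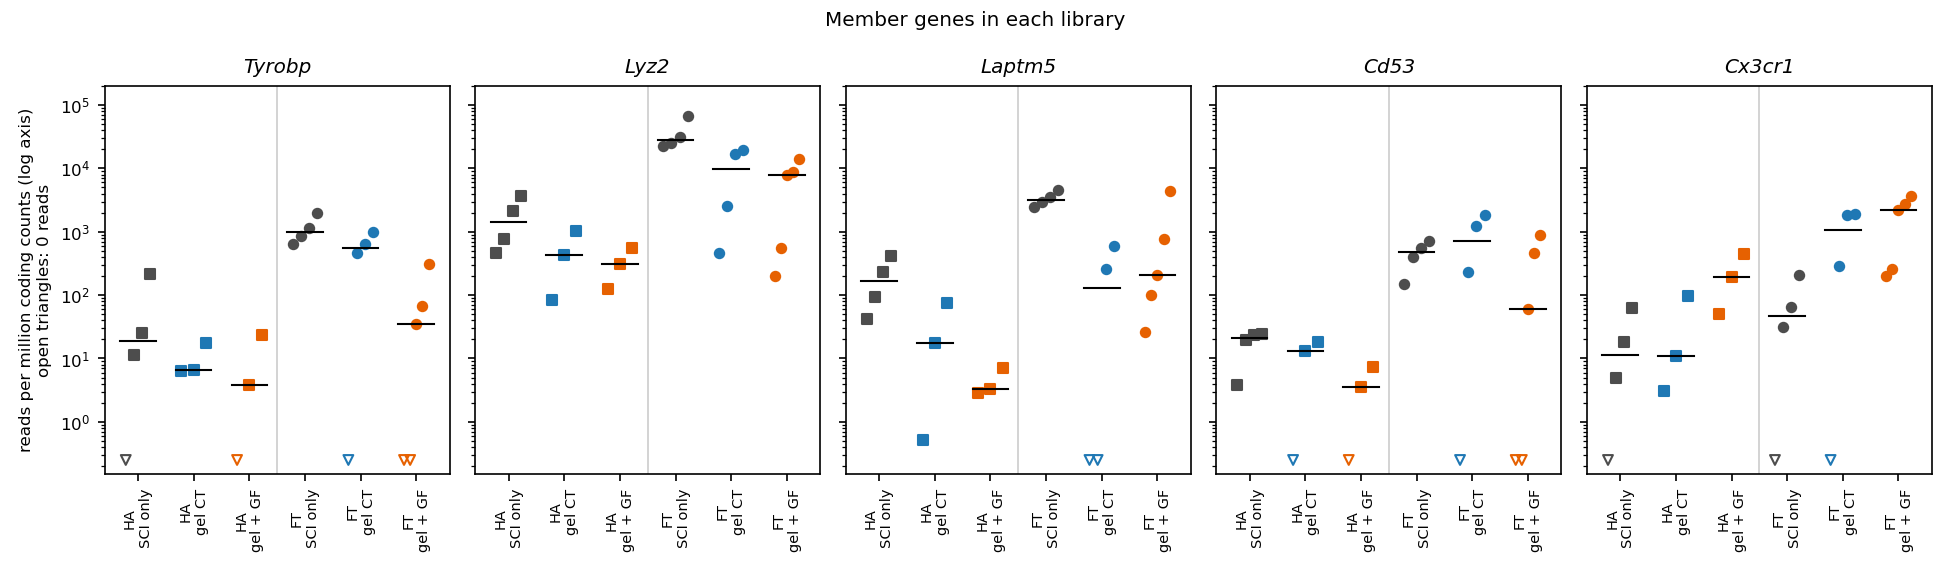
Level of each member gene in each of the 23 libraries, in coding CPM on a log axis, by fraction and treatment; black lines are group medians and open triangles are libraries with 0 reads. FT libraries lie mostly above HA libraries, with overlap, and Cx3cr1 is the 1 gene whose FT median is lowest after injury alone (47.7 coding CPM).

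Per kilobase of transcript, which allows genes to be compared, the order of the members changed with treatment. After injury alone the FT medians were 21146 for Lyz2, 1789 for Tyrobp, 1239 for Laptm5, 277 for Cd53 and 12.7 for Cx3cr1 (coding CPM per kilobase). In FT with growth factors the median was 6015 for Lyz2, 592 for Cx3cr1, 78.7 for Laptm5, 61.3 for Tyrobp and 34.7 for Cd53. The Laptm5 median was 3 reads in library 1685, and those of Tyrobp and Cd53 were 4 and 7 reads in library 1732. The order among Laptm5, Tyrobp and Cd53 is therefore not established. Cx3cr1 was thus last after injury alone and next to Lyz2 with growth factors. When the 6 groups were ordered by their median for each gene, neighbouring groups overlapped everywhere except for Lyz2, where FT after injury alone lay above the next group, FT with hydrogel CT.

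All 5 members were lower in HA than in FT over the 10 numbers, against 6.51% of the 4747 genes tested that were lower in HA (19.2% differed in either direction). Cd53 differed most, with a log2 ratio of HA to FT at -5.17 (SE 0.71, adjusted p = 1.64e-06), or 36.0-fold. For Tyrobp the log2 ratio was -3.72 (SE 0.70, adjusted p = 0.000156) and for Lyz2 it was -3.54 (SE 0.52, adjusted p = 4.92e-06). Laptm5 had -3.42 (SE 0.61, adjusted p = 6.87e-05). Cx3cr1 differed least, at -2.55 (SE 0.70, adjusted p = 0.00837), or 5.87-fold. The median over all genes tested was 0.30. As a share of the FT level of the same number, the median HA level was 0.898% for Cd53, 2.11% for Tyrobp, 3.30% for Lyz2, 6.65% for Laptm5 and 7.0% for Cx3cr1. The last 2 medians are over 9 numbers, without 1762 and 9935 respectively, where FT had 0 reads and HA was higher. All 5 remained past the threshold under each of the 18 alternatives run, including those that leave out 1 number each and the one without the shallow FT libraries.

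Within single treatments the same direction held for all 5 genes, with fewer of them past the threshold. After injury alone 4 of 5 were lower in HA (1.75% of genes tested), Cx3cr1 being the other at -1.59 (SE 1.03, adjusted p = 0.465). With hydrogel CT 4 of 5 were lower (1.05%), Laptm5 being the other at -2.59 (SE 1.03, adjusted p = 0.179). With growth factors 3 of 5 were lower (4.42%), with Tyrobp at -1.46 (SE 1.33, adjusted p = 0.493) and Cx3cr1 at -1.72 (SE 1.07, adjusted p = 0.291). These counts rest on few libraries. After injury alone 1 member was left without number 9596 or without 9843, 2 without 9935 and 3 without 9874. With hydrogel CT 1 was left without 1724 or without 1762 and 0 without 1759. With growth factors 0 were left without 1685, and Cd53 alone without 1687, which is also the value without the shallow FT libraries. Lyz2 was lost there without 1759, without 9843 or without 9935, each leaving 2 members. The edgeR test of whether the HA to FT difference depends on treatment called 0 of the 5 members and 0% of genes tested. No member had an unadjusted p under 0.05 in this fit or by DESeq2, which called 0 members and 61 genes. In other edgeR fits up to 2 members did (1 with all 23 libraries, 2 without number 9874), and none passed adjustment. So a call within 1 treatment and not in another does not show that the treatments differ.

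**Figure D2:**
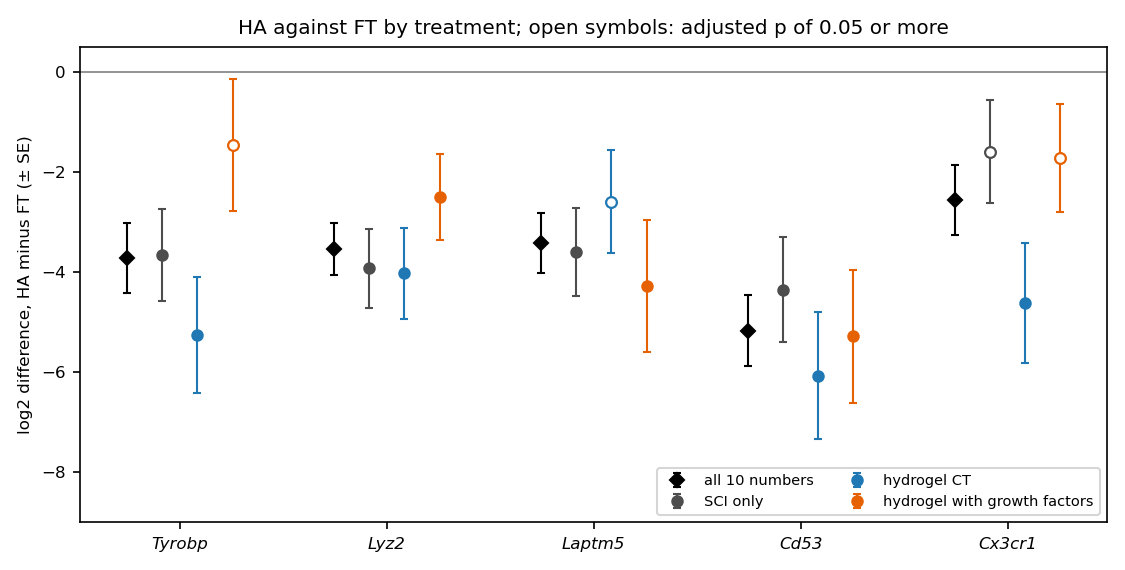
Log2 difference between HA and FT for each member, over all 10 numbers (black diamonds) and within each treatment (circles), with standard errors; open symbols did not pass an adjusted p of 0.05. All values are below 0, from -6.06 for Cd53 with hydrogel CT to -1.46 for Tyrobp with growth factors.

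In FT, Cx3cr1 and Lyz2 differed between treatments in opposite directions. In such bulk RNA, fewer cells of a type and less RNA per cell cannot be told apart. Against injury alone, Cx3cr1 rose with growth factors by 3.51 in log2 (SE 0.95, adjusted p = 0.0382), and Lyz2 fell by 3.52 (SE 0.97, adjusted p = 0.0388). These were 2 of the 3 members tested, where 0.328% of 610 genes were higher and 3.44% lower. Cd53 was the other, at -1.40 (SE 0.85, adjusted p = 0.368). Tyrobp and Laptm5 did not pass the filter on low counts, which left 610 of 4898 genes, although their reads after injury alone were 23 to 187 and 125 to 744 per library. Cx3cr1 had 0 to 20 reads per library after injury alone and could pass this filter only through the hydrogel libraries. All its calls with this filter, also those for hydrogel CT, therefore support nothing. The call of Cx3cr1 was lost without FT library 1687 (which left 0 members), 9596, 9843 or 9935. That of Lyz2 was lost without 1687, 1732, 1645, 9843 or 9874. Without 9596, 9843, 9874 or 9935 Tyrobp passed the filter and was called, but with 0 to 4 reads per growth factor library it could pass only through the other groups, so these calls support nothing. With DESeq2 size factors Cx3cr1 alone was called.

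With no filter on low counts, so that all 4898 listed genes were tested, 4 of 5 members differed between FT with growth factors and FT after injury alone. Tyrobp had a log2 difference at -4.86 (SE 1.00, adjusted p = 0.000568), Lyz2 at -3.93 (SE 0.85, adjusted p = 0.00106) and Laptm5 at -3.71 (SE 0.88, adjusted p = 0.00345), where 3.25% of genes fell. Tyrobp had 7 reads over the growth factor libraries. It is thus in the FT table, which starts at 11 reads, only through the other groups, and its call supports nothing. That of Laptm5 rests on 1 to 10 reads per growth factor library. Cx3cr1 rose by 3.24 (SE 0.89, adjusted p = 0.0163), where 0.306% of genes rose, and Cd53 was at -1.52 (SE 0.83, adjusted p = 0.290). Without the 4 shallow FT libraries the same 4 members were called, with Laptm5 at -5.89 and Tyrobp at -5.07 (1.26% of 2301 genes fell and 0.826% rose). This left libraries 1685 and 1732 with growth factors, in which Laptm5 had 3 and 3 reads and Tyrobp 1 and 4. Both genes could pass the filter there only with the other groups, so these calls of Laptm5 and Tyrobp support nothing. With protein-coding genes alone Laptm5 was not called (adjusted p = 0.0616), and 3.45% of genes fell. The authors' deposited table, made from the same counts, also lists all 4 at a false discovery rate under 0.05. Its log2 fold changes are -4.87 for Tyrobp, -3.95 for Lyz2, -3.66 for Laptm5 and 3.24 for Cx3cr1.

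Hydrogel CT against injury alone gave the same signs for 4 of the 5 members in FT. With the filter, 0 of 3 members tested were called by edgeR (3.28% of genes), 2 of them had an unadjusted p under 0.05, and DESeq2 called Cx3cr1 alone (4.59% of genes higher). Cx3cr1 stood at 2.98 (SE 0.95, adjusted p = 0.0795) and Lyz2 at -2.57 (SE 1.00, adjusted p = 0.170). With no filter, Laptm5 fell by 4.18 (SE 0.96, adjusted p = 0.00416; 2.74% of genes fell) and Cx3cr1 rose by 3.21 (SE 0.90, adjusted p = 0.0297; 0.306% rose). Tyrobp was at -1.51 (SE 0.84, adjusted p = 0.277), Lyz2 at -2.30 (SE 0.87, adjusted p = 0.0981) and Cd53 at 0.44 (SE 0.81, adjusted p = 0.801). Without FT library 1683, which has 4249 coding reads, the filter let Laptm5 through and both Laptm5 and Cx3cr1 were called. They were the members called without the 4 shallow libraries too (1.52% of 2301 genes fell and 0.261% rose). In the authors' deposited table Laptm5 is at -4.23 and Cx3cr1 at 3.18, both under a false discovery rate of 0.05. Both hydrogel comparisons share the injury-only libraries.

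Growth factors against hydrogel CT in FT called 0 members of 3 by edgeR (0% of 610 genes), with 0 at an unadjusted p under 0.05 and 0 by DESeq2. With no filter 3 members had an unadjusted p under 0.05 and none passed adjustment. Tyrobp was then at -3.35 (95% interval -5.33 to -1.37, adjusted p = 0.343) and Cx3cr1 at 0.03 (95% interval -1.52 to 1.58).

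**Figure D3:**
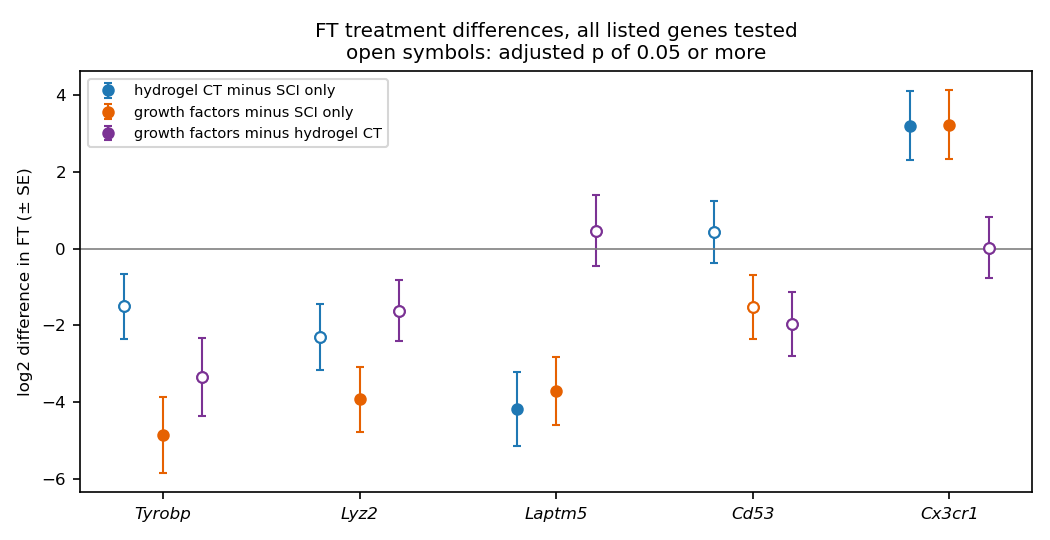
Log2 difference between treatments in FT for each member with no filter on low counts, with standard errors; open symbols did not pass an adjusted p of 0.05. Cx3cr1 lies above 0 in both comparisons with injury alone (3.21 and 3.24), and Tyrobp, Lyz2 and Laptm5 lie below 0 in both.

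Several measures moved with the FT treatments. The hydrogel libraries carry title numbers that start with 1 and the injury-only libraries numbers that start with 9, so a difference between the 2 series of numbers and the treatment cannot be told apart. The Yam1 share was 89.7% to 93.1% after injury alone, 28.3% to 67.9% for hydrogel CT and 13.8% to 88.7% for growth factors. The sum of the astrocyte markers, 10 of 12 of which are listed in FT, was 12125 to 16393 coding CPM after injury alone, 13137 to 97905 for hydrogel CT and 3542 to 83946 for growth factors. For the 6 of 8 listed neuron markers the 3 ranges were 3082 to 7806, 4942 to 19169 and 8441 to 27002. For the 7 of 8 listed oligodendrocyte markers they were 7612 to 9219, 6467 to 14278 and 1529 to 22657. No gene of the neutrophil (10), lymphocyte (12) or endothelial (6) lists is in the FT table, which starts at 11 reads a transcript. The part of these measures in the treatment differences was not tested.

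In HA, no member passed the threshold in any comparison of treatments by edgeR. On simulated counts the fit of growth factors against injury alone recovered 1.0% of 4-fold changes, so a missing call does not show that there is no difference. For growth factors against injury alone (0.436% of 6654 genes called) 3 members had an unadjusted p under 0.05. Laptm5 was at -4.99 (95% interval -7.91 to -2.06, adjusted p = 0.108). Cx3cr1 was at 4.05 (1.42 to 6.67, adjusted p = 0.128) and Lyz2 at -1.80 (-3.42 to -0.17, adjusted p = 0.224). DESeq2 called Laptm5 (adjusted p = 0.00130) and Cx3cr1 (adjusted p = 0.0126), with 14.1% of genes called, and the authors' deposited table gives them false discovery rates of 0.0330 and 0.0462. Laptm5 had 2 to 5 reads per HA library with growth factors, and Cx3cr1 had 0 to 16 per HA library after injury alone. Each could pass the filter only with the groups where it was high, so the DESeq2 calls support nothing. The authors' values rest on the same counts. For hydrogel CT against injury alone (0.195% called) and for growth factors against hydrogel CT (0.0902%), 0 members were called by edgeR or DESeq2 and 0 had an unadjusted edgeR p under 0.05. The closest in the latter was Cx3cr1 at 2.94 (SE 1.40, adjusted p = 0.377).

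The make-up of the members' reads within a library needs no scaling between libraries. Leaving aside Lyz2, Cx3cr1 gave, in rising order, 0%, 0.755%, 1.17% and 4.11% of the reads of the 4 members left in FT after injury alone. With hydrogel CT the FT shares were 25%, 34.8% and 50% (library 1683 had 0 reads of these 4), and with growth factors 33.3%, 66.7%, 68.2%, 70.2% and 70.6%. In HA they were 0%, 4%, 18.6% and 20% after injury alone, 14.5%, 23.1% and 49.2% with hydrogel CT, and 84.8%, 88.5% and 97.7% with growth factors. The growth factor libraries were all above the injury-only libraries in both fractions. In FT library 1729 this share was 2 of 3 reads and in 1645 it was 5 of 15. How often other sets of genes show such a separation was not looked at. The share of Lyz2 itself was 79.8% to 92.4% in FT after injury alone and 69.2% to 100% with hydrogel CT. In HA it was 83.5% to 86.4% after injury alone and 36.0% to 90.6% with growth factors, which overlap. In FT with growth factors it was 40.0% to 68.1%, where library 1729 gave only 5 reads in all and 1645 gave 47. The make-up was looked at after the levels had been seen and is given as a description, with no test.

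**Figure D4:**
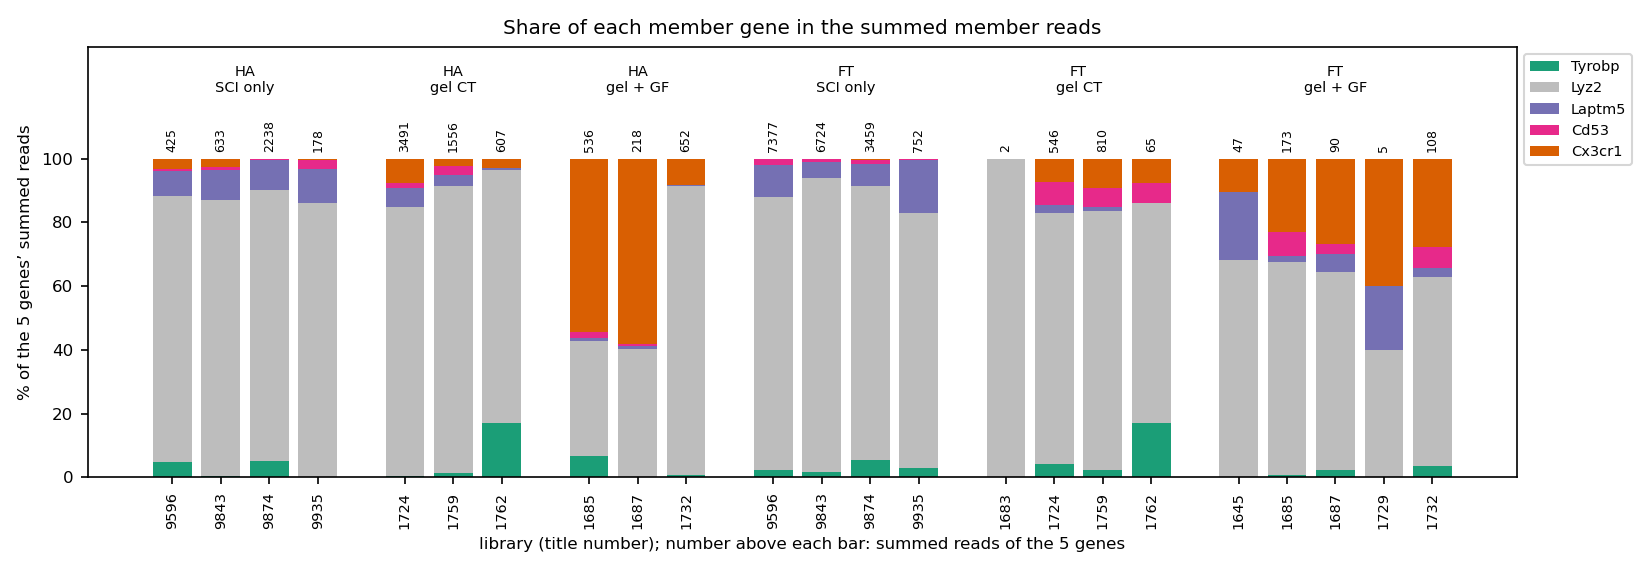
Share of each member in the summed reads of the 5 genes, in percent, for each library, with the summed reads printed above each bar. Cx3cr1 takes 10.6% to 40.0% in FT with growth factors and 8.28% to 58.3% in HA with growth factors, against at most 0.578% in FT and 3.29% in HA after injury alone.

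Other genes of the same cells were also low in the precipitate. Over all genes tested 6.51% were lower in HA. Only part of each list could be tested, 6 of 13 homeostatic microglia genes, 3 of 14 Tyrobp partners, 7 of 16 macrophage and phagocyte genes and 6 of 17 pan-leukocyte genes. The others were not listed in both fractions. Of the homeostatic microglia list 3 of 6 tested genes were lower and 0 higher, among them Fcrls at -3.40 and Selplg, a ligand of selectins, at -3.49. By sign alone, 5 of these 6 were below 0 and 1 was above. Of the Tyrobp partners 2 of 3 were lower, Fcer1g, an adaptor of the same kind, at -3.06 and the Fc receptor Fcgr1 at -3.54, and Trem2 was at -2.14 (adjusted p = 0.146). All 7 macrophage and phagocyte genes tested were lower, among them Gpnmb at -2.51, the protease Ctss at -3.70, Spp1 at -2.93 and the scavenger receptor Msr1 at -3.55. Of the complement C1q chains C1qc (-3.07) and C1qb (-2.64) were lower and C1qa was at -1.25 (adjusted p = 0.248). Of the pan-leukocyte genes 5 of 6 were lower, including the transcription factor Irf8 at -3.56, Lcp1 at -4.16, and Cybb (-3.85) and Cyba (-2.29), subunits of the phagocyte oxidase. The medians of these lists were between -3.39 and -2.37, with -3.54 for the 5 members and 0.30 for all genes. Fcgr1 and Trem2 each stand in 2 of the lists.

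Genes of other cell types moved in both directions. Of the astrocyte genes 9 of 10 tested were higher in HA (12.7% of all genes; median 2.44), with Clu at 4.17, Gfap, the intermediate filament whose promoter drives the Cre, at 3.72, Sparcl1 at 2.74 and Slc1a2, a glutamate transporter, at 2.53. The precipitate also held more RNA of the oligodendrocyte progenitor list, 5 of 5 higher (median 3.43; Olig1 3.43, Olig2 3.66, Gpr17 3.55, Cacng4 2.27), and of oligodendrocytes, 4 of 7 higher (median 1.52; Mag 2.51, Cldn11 1.69, Mal 1.52, Mog 1.72). Neuron genes were lower in 5 of 6 (median -3.03; Nefl -3.23, Nefm -2.84, Snap25 -3.54, Slc17a6 -4.08), and 1 of 4 fibroblast and pericyte genes was lower, Col1a1 at -2.25. The ligand of Cx3cr1, Cx3cl1, was at 1.59 (adjusted p = 0.126). In HA the astrocyte markers summed to 42209 to 81550 coding CPM, and the 5 members to 105 to 4367, against 471 to 71717 in FT.

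**Figure D5:**
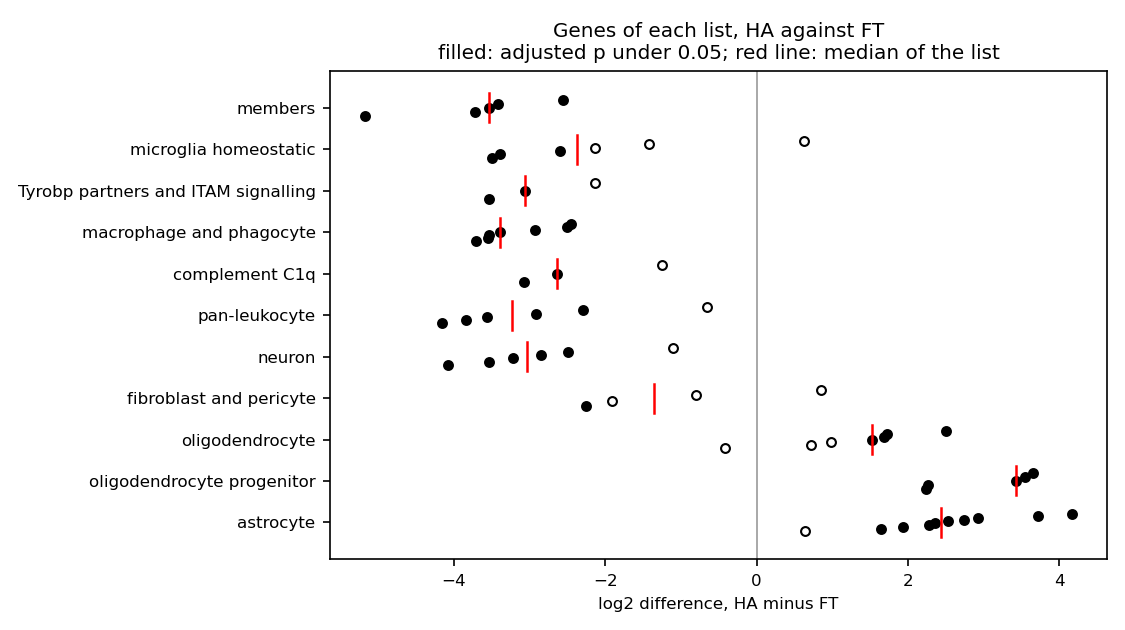
Log2 difference between HA and FT for each tested gene of the marker lists; filled points passed an adjusted p of 0.05 and red lines are list medians. The members (median -3.54) lie among the microglia, phagocyte, leukocyte and neuron lists, and astrocyte (2.44) and oligodendrocyte progenitor genes (3.43) lie on the other side of 0.

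In FT after the hydrogels, the called genes of the complement and homeostatic microglia lists were lower than after injury alone, and so were some of oligodendrocytes. Several of them are listed only through the injury-only libraries, as given below, and their calls support nothing. With the filter, 0 of 2 homeostatic and 0 of 4 oligodendrocyte genes tested were called for either hydrogel. C1qa had 148 to 1216 reads per FT library after injury alone, 0 to 4 for hydrogel CT and 1 to 2 for growth factors. Its log2 difference from injury alone was -5.82 (SE 0.97, adjusted p = 0.000635) and -6.36 (SE 0.94, adjusted p = 8.76e-05). With so few reads after the hydrogels, C1qa could pass the filter only with the injury-only libraries, so these calls support nothing. C1qb fell by 2.79 (SE 0.78, adjusted p = 0.0388) with growth factors and C1qc was at -2.45 (adjusted p = 0.128). With no filter, 2 of 8 listed homeostatic genes fell with hydrogel CT (Selplg and Tmem119) and 3 of 8 with growth factors (those and Trem2), and 0 rose. Tmem119, a membrane protein of resident microglia, had 129 reads summed over the FT libraries after injury alone, 1 for hydrogel CT and 0 for growth factors, and Trem2 had 119 reads, then 3 and 0. Spi1, which encodes PU.1, had 61, 1 and 0 reads and fell with growth factors, as did Irf8 (107, 13 and 1 reads) and Ucp2 (1132, 31 and 25), giving 3 of 8 pan-leukocyte genes (1 of 8, Ucp2, with hydrogel CT). In the same test without a filter, 1 of 7 oligodendrocyte genes fell with hydrogel CT (Mag) and 2 with growth factors (Mag and Mog), and of 5 progenitor genes 1 fell with hydrogel CT (Cspg4). Mag, a myelin glycoprotein, had 298, 4 and 4 reads, Mog 141, 12 and 1, and Cspg4 64, 0 and 2. The coding reads behind these sums were 472050, 82705 and 149040, of which 115767 of the last are from library 1732. Selplg had 230, 2 and 4 reads. Tmem119, Trem2, Selplg, Spi1, Mag and Cspg4 are in the FT table, which starts at 11 reads, only through the injury-only libraries. The counts of fallen genes that include them are a description of what the table lists and support nothing. Tmem119, Selplg, Spi1, Ucp2, Mag, Mog and Cspg4 in this comparison were chosen for naming after their values were seen. Of the 8 listed macrophage and phagocyte genes 0 fell with either hydrogel (edgeR, no filter), with medians of -0.15 and -1.43 against -0.79 and -0.62 for all genes.

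The genes most like the mean profile of the 5 members over the 20 libraries were Mpeg1, a pore-forming protein of phagocytes (Pearson r = 0.952), Fcer1g (0.926), Gpnmb (0.926), C1qc (0.904), Cst7 (0.901), Fth1 (0.898), Fcrls (0.882) and Cd180 (0.880). Within FT alone the correlation of these 8 genes with the profile was between 0.657 and 0.977 and within HA between 0.573 and 0.813, over 10 libraries each. Libraries of 1 fraction and of 1 treatment share that fraction and treatment, and the correlations are descriptions. Among the 50 genes most like each member, Lyz2 had 3 of the other 4 members, Tyrobp 2, Laptm5 1, Cd53 1 and Cx3cr1 0. Correlation with the profile was 0.948 for Cd53, 0.935 for Lyz2, 0.833 for Tyrobp, 0.774 for Laptm5 and 0.408 for Cx3cr1. Each member is itself a part of the profile, which raises these 5 values. Within FT, Cx3cr1 correlated at -0.41 with Laptm5, -0.33 with Tyrobp and -0.24 with Lyz2, and at 0.46 with Cd53.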

How the data were processed

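RNA-seq counts of 23 libraries were analysed (10 HA, 13 FT). Per the labels' protocols, cDNA was amplified from 5 ng of RNA with the NuGEN Ovation system and made into paired-end libraries. The build was mm10, and edgeR and CASAVA 1.8.2 are named, per the submitters' processing notes. Which aligner, counter, strand setting and annotation served is not given in the sources used here. The authors deposited whole-number read counts per transcript, with log2 fold changes, p-values and false discovery rates from edgeR per the file headers. The smallest total of a transcript was 10 reads in HA and 11 in FT. A further 45 columns of per-sample values were not used.

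Counts were summed per gene symbol. Transcripts without a symbol (136 in HA, 35 in FT) were left out and held at most 0.319% of a library. Tests used edgeR 4.0.16 (quasi-likelihood, TMM scaling, filterByExpr with a minimum count of 10, R 4.3.3), with Benjamini-Hochberg adjustment over all genes tested and a threshold of 0.05. HA was compared with FT over the 10 numbers with both fractions and the 4781 genes in both tables, with treatment as a covariate, or with 1 mean per fraction and treatment. Treatments were compared within a fraction, over all its libraries. Alternatives were DESeq2 1.42.0, its size factors, other filters (none, or at least 5 CPM), protein-coding genes alone, all 23 libraries, a block on the number, only the groups compared, and leaving out each library. The alternative without the 4 FT libraries of fewer than 10000 coding reads was chosen after seeing the data. No libraries of a group agreed within sampling noise (chi-square per degree of freedom of at least 4.61). Intervals are normal 95% intervals from the SE. The fits were tested on simulated counts with a fixed spread between libraries. Of 4-fold changes, HA against FT recovered 67.7%, and growth factors against injury alone 1.0% in HA and 49.2% in FT. Of 10-fold changes they recovered 100%, 68.5% and 94.0%. False calls were 7.80% of those made in HA against FT at 4-fold and at most 4.59% in the other fits. Named genes were the members, up to 4 genes per marker list by smallest p in HA against FT, and the 8 genes most correlated with the members' mean z-scored log2 CPM (prior count 2). A gene that this rule also names is not reported here. The members and lists were chosen with earlier results of these data known. Coordinates come from GENCODE M21 (mm10), promoters from RefSeq.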

Additional observations from a re-analysis of the deposited data

Results flagged for a closer look

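Among 20 sets of 4 or 5 libraries (5 genes in 4 groups), 3 held a library far from the others of its group by Dixon's test. For normally distributed values chance gives about 1 in 20. These levels hold zeros and come from libraries of unequal depth, so that rate need not apply. Tyrobp was high in HA library 9874 after injury alone, at 219 coding CPM. It was also high in FT library 1687 with growth factors, at 310 coding CPM, which was 2 reads. Laptm5 was high in FT library 1645 with growth factors, at 4442 coding CPM, which was 10 reads of 2251 coding reads.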

How the results depend on the processing

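For HA against FT, all 5 members were called under each of 18 alternatives, with the log2 difference of Cx3cr1 from -3.09 to -2.13 and of Cd53 from -5.55 to -4.99. The labels state no pairing, so the main fits did not use the number to pair libraries. Title numbers with both fractions did not deviate together (correlations of 0.002 to 0.080, 0 of 10 above 0.1). With small groups and shallow FT libraries this check can miss a pairing. A replicate block on the number kept 5 members, with 894 genes called against 910, and gave 4, 4 and 3 members within the treatments, as without it. It called 12 genes, none a member, for the difference between treatments, against 0. Leaving out 1 number at a time gave 1 to 4 members after injury alone, 0 to 4 for hydrogel CT and 0 to 3 for growth factors. Without the shallow FT libraries 1 member was called with growth factors. In HA, growth factors against injury alone called 2 members by DESeq2 and 0 otherwise. In FT, hydrogel CT against injury alone called 0 members, 1 by DESeq2 or with only the groups compared, and 2 with no filter, with at least 5 CPM, with protein-coding genes or without the shallow libraries (0 to 2 leaving out 1 library). In FT, growth factors against injury alone called Lyz2 and Cx3cr1, Lyz2 and Laptm5 with only the groups compared (Cx3cr1 was then filtered), 1 member with DESeq2 size factors, and 4 with no filter, at least 5 CPM or without the shallow libraries (0 to 2 leaving out 1 library). The counts for treatments in HA and FT include the calls of Cx3cr1, Tyrobp and Laptm5 said above to support nothing. Of 675 values of single members under alternatives, 12 changed sign, none of them past the threshold, and the cause was not tested. All 12 arose on leaving out libraries. Leaving out 1 library at a time in HA, hydrogel CT against injury alone ran from -1.12 to 2.31 for Cx3cr1 and from -1.06 to 0.10 for Cd53. Growth factors against injury alone ran from -4.17 to 0.26 for Tyrobp, and growth factors against hydrogel CT from -1.79 to 1.05 for Tyrobp and from -1.01 to 0.66 for Lyz2. In FT, Cd53 ran from -0.45 to 0.61 for hydrogel CT against injury alone. Cx3cr1 ran from -0.0268 to 0.93 for growth factors against hydrogel CT, and was at -0.041 without the shallow libraries. Depth limits the FT hydrogel libraries most, where several member values rest on fewer than 10 reads.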
